A study of Mus musculus with 25 samples.

Results

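The late effect of BW245C on the livers of mice given concanavalin A (ConA) was read from 10 of the 25 arrays of the study: the 5 livers labelled ConA+BW245C at 24 hr against the 5 labelled ConA+vehicle at 24 hr, across all genes. The arrays were chosen by their titles, and no measured value entered the choice. All mice were C57BL/6NcrSlc females. Mice of both groups received 10 mg/kg ConA, and 15 min after it 1 mg/kg BW245C or vehicle by intraperitoneal injection. Livers were taken 24 hr later, and 1 Cy3-labelled RNA sample per mouse was hybridised to a 1-colour Agilent array. The other 15 arrays hold 5 ConA+BW245C and 5 ConA+vehicle livers taken at 3 hr and 5 untreated livers. Each array is labelled as a separate mouse, so the spread between arrays includes that between animals. The vehicle is not named in the labels.

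ConA, a lectin of the jack bean, makes T cells activate, and mice injected with it serve as a model of immune-driven hepatitis. BW245C is a synthetic compound that switches on DP1. Prostaglandin D2 acts on this receptor, which couples to Gs and raises cyclic AMP in the cells that carry it. In acute hepatitis, activated lymphocytes and macrophages release cytokines, hepatocytes and endothelium release chemokines that draw in neutrophils, and the injured hepatocytes lower many of their metabolic genes. The study's title gives the purpose as the effect of the agonist on this hepatitis.

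Values are log2 levels relative to the 75th percentile of each array, so that 0 is the level of that percentile, and differences are ConA+BW245C minus ConA+vehicle on the log2 scale. Levels are comparable for a gene between arrays but not between genes. The livers carried their tissue's label: none of the 16 hepatocyte markers was at background on every array at 24 hr. Their summed level was 6370 to 8710 in ConA+BW245C livers, 5690 to 7470 in ConA+vehicle livers and 9020 to 10800 in untreated livers, in units of the 75th percentile. Between 54.5% and 59.6% of spots were well above background on the ConA+BW245C arrays and between 56.2% and 61.6% on the ConA+vehicle arrays, and no spot was saturated. The 10 arrays were not spread evenly over slides. Slide 4 held ConA+BW245C replicates 1, 2 and 4 and ConA+vehicle replicates 2, 3, 4 and 5. ConA+BW245C replicates 3 and 5 lay on slides 2 and 5, and ConA+vehicle replicate 1 lay on slide 3. Slide 2 was scanned on another day than the other slides, so ConA+BW245C replicate 3 also differed from the rest of the 10 arrays in scan day. A fit that adds a term for the slide, called the slide term, was therefore run beside the first, and the calls that it ended are given with their genes. Of the 167 called genes named below, 157 passed with the slide term and 40 passed within slide 4 alone.

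ConA+BW245C replicate 4 stood apart from the other arrays. It had the highest level of all 25 arrays for each of the 10 tested genes of pancreatic acinar cells, out of a list of 24 drawn up after this was seen. These genes encode secreted digestive enzymes. Their summed level was 1630 on this array, against 4.25 to 9.25 on the other ConA+BW245C arrays and 4.78 to 6.76 on the ConA+vehicle arrays. The excess over the median of the other 9 arrays ran from 108-fold for Clps, the colipase gene, to 3750-fold for Try5, a trypsin gene, with a median of 304-fold. Some of the values that changed without this liver are given with and without it. The part of this liver in the results was not tested beyond leaving it out.

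**Figure D1:**
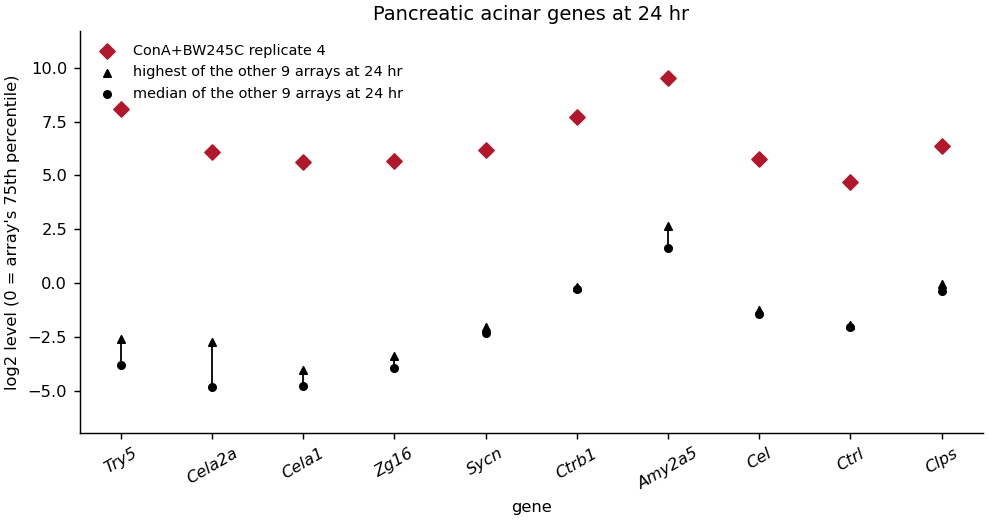
Log2 level of the 10 tested pancreatic acinar genes on the array of ConA+BW245C replicate 4 (red diamonds), with the highest (triangles) and the median (circles) of the other 9 arrays at 24 hr. On this array every one of the 10 genes lies above all the other arrays, by 108-fold to 3750-fold over their median.

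Of 15104 genes tested, 4013 changed at an adjusted p under 0.05, which is 26.6% of the genes tested. Of these, 2661 were higher (17.6% of genes tested) and 1352 were lower (8.95%), so that 66.3% of the calls were higher. The median change over all genes was 0.01. With the authors' scaled values in place of the 75th percentile, 4572 genes were called and 42.8% of them were higher, with a median change over all genes of -0.10. Among the called genes 641 changed at least 2-fold (4.24%), 331 upwards (2.19%) and 310 downwards (2.05%). The levels of the 2 groups did not overlap in 2633 genes (17.4%), of which 1816 were higher (12%) and 817 lower (5.41%).

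Signs were then compared with and without the slide term. With it 4328 genes passed. Of these, 3259 were also among the 4013 with the same direction and 0 with the opposite one, and 53.2% of the 4328 were higher. All 4013 called genes had the same sign among the 7 arrays of slide 4. These arrays are part of those that gave the calls, so the shared sign is no separate test. Within slide 4 alone 369 genes passed, and 1897 passed there without ConA+BW245C replicate 4. Without that replicate and with all other arrays kept, 4342 genes passed.

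**Figure D2:**
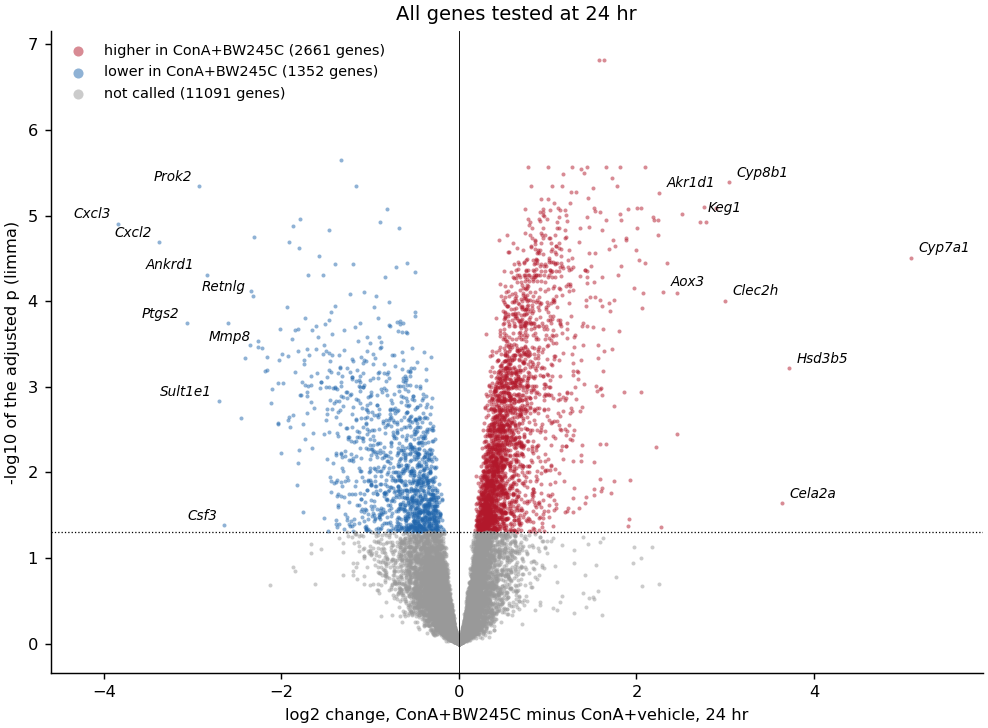
Change at 24 hr, ConA+BW245C minus ConA+vehicle (x axis, log2), against -log10 of the limma adjusted p (y axis) for the 15104 genes tested, each point 1 gene. The dotted line marks an adjusted p of 0.05, with 2661 genes higher and 1352 lower above it, and labels name some of the genes with the largest changes.

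The 15 largest rises and the 15 largest falls among genes whose groups did not overlap gave the outline of the effect. The fitted rises were 4.78-fold to 34.2-fold and included genes of bile acid and steroid metabolism. The fitted falls were 4.79-fold to 14.3-fold and included neutrophil-attracting chemokines, prostaglandin synthesis and neutrophil genes. All 15 rises and 14 of the 15 falls passed with the slide term, and 14 of each passed without ConA+BW245C replicate 4. Within slide 4, 6 of the rises and 8 of the falls passed.

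Bile acid synthesis held the largest rise. Cyp7a1, the rate-limiting enzyme of the pathway, stood at 0.78, 0.91, 0.46, 0.58 and -0.02 in ConA+BW245C livers, against -5.35, -3.49, -3.35, -6.91 and -3.67 in ConA+vehicle livers. The groups were far apart, and the ConA+vehicle livers also varied more. The rise was 5.10 ± 0.71 (SE, n = 5 each), or 34.2-fold, with a limma adjusted p of 3.11e-05. Only 3 of the 5 ConA+vehicle arrays were well above background for Cyp7a1. In untreated livers its mean level was 3.48, above both ConA groups.

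Cyp8b1, the sterol 12-alpha-hydroxylase that directs synthesis towards cholic acid, stood at 0.86, 0.89, 0.78, -0.12 and 0.40 in ConA+BW245C livers and at -3.31, -1.69, -2.34, -3.40 and -1.69 in ConA+vehicle livers. It rose by 3.05 ± 0.33 (SE, n = 5 each; adjusted p = 4.07e-06). Akr1d1, the steroid 5-beta-reductase of the pathway, stood at 0.18, 0.81, 0.64, -0.58 and -0.04 in ConA+BW245C livers and at -2.32, -1.32, -1.98, -2.76 and -1.89 in ConA+vehicle livers. It rose by 2.26 ± 0.26 (adjusted p = 5.37e-06). In both genes the lowest ConA+BW245C liver was replicate 4 and lay above every ConA+vehicle liver.

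Of the 23 tested genes of bile acid synthesis and transport, 18 rose and 0 fell, with a median change of 0.75, against 17.6% rising and a median of 0.01 over all genes. The median was 0.61 within slide 4. Cyp27a1, the sterol 27-hydroxylase of the acidic pathway, rose by 1.13, and Akr1c6, an aldo-keto reductase, by 2.20. Slco1b2, an uptake transporter of the hepatocyte's blood-facing membrane, rose by 1.44. Nr1h4, which encodes the bile acid receptor FXR, rose by 0.75. Nr1h5, the related receptor FXR-beta of mice, was not well above background on any ConA+vehicle array and was at least 1.75-fold higher in ConA+BW245C livers, where 4 of 5 arrays measured it (adjusted p = 7.98e-05). Such a fold is a lower bound, set against the dimmest signal that counted as above background.

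The start of the Cyp8b1 gene is shown because this gene was among the largest rises; Cyp7a1 is named only. The 250 bases before its RefSeq start are given on the gene's own strand (GRCm38.p6, chr9:121916306-121916555, minus strand, RefSeq), with capitals for the only match to CAAAGTCCA, a short form of the sequence bound by the hepatocyte receptor HNF4-alpha. The match begins 67 bases before the start.
Cyp8b1: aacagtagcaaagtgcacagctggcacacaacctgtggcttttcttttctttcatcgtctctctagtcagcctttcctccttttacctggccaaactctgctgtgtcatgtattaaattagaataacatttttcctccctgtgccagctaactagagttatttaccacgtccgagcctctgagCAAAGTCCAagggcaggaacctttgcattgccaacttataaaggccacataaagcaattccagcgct
On either strand CAAAGTCCA was found in 0.384% of all 32851 RefSeq promoters of this length, in 0.43% of those of genes tested, in 1.8% of the 333 promoters of genes that rose at least 2-fold and in 0% of the 298 of genes that fell at least 2-fold. These shares describe letters in a window and not binding.

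Steroid and oxidative enzymes followed. The Hsd3b genes encode 3-beta-hydroxysteroid dehydrogenases and lie among near-identical copies, so their probes may share signal and their members are given as uncertain. Hsd3b3 stood at 4.60, 5.36, 5.68, 4.06 and 4.77 in ConA+BW245C livers and at 1.28, 3.39, 2.80, 0.82 and 1.71 in ConA+vehicle livers, and rose by 2.89 ± 0.34 (adjusted p = 8.09e-06). Hsd3b2 rose by 2.79 and Hsd3b6 by 2.76. Hsd3b5, a male-biased member in mouse liver, was not well above background on any ConA+vehicle array and was at least 8.60-fold higher in ConA+BW245C livers (adjusted p = 0.000602).

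Hsd3b1 was also not above background in ConA+vehicle livers, was above it in 2 of 5 ConA+BW245C livers, and was at least 1.27-fold higher (adjusted p = 0.0431). That call was lost without any 1 of ConA+BW245C replicates 1 to 4 or ConA+vehicle replicates 1 to 4, with adjusted p between 0.0589 and 0.0968. Among the other large rises, Aox3, an aldehyde oxidase, rose by 2.30. Ces1f, a carboxylesterase, rose by 2.35. Keg1 rose by 2.72. Clec2h, a C-type lectin-related gene, was not well above background on any ConA+vehicle array and was at least 2.92-fold higher (adjusted p = 9.88e-05). Cela2a, a pancreatic elastase, was also not well above background on any ConA+vehicle array. It was at least 9.89-fold higher in ConA+BW245C livers (adjusted p = 0.0228), and at least 2.66-fold higher without replicate 4 (adjusted p = 0.000153).

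Cytochrome P450 enzymes outside the bile acid pathway rose in 19 of 27 tested members, with 0 falling and a median of 0.85. Cyp2e1, an enzyme of ethanol and small-molecule oxidation that marks pericentral hepatocytes, stood at 8.51, 8.83, 9.0, 7.96 and 8.77 in ConA+BW245C livers and at 6.86, 7.43, 7.39, 6.87 and 7.69 in ConA+vehicle livers. It rose by 1.37 ± 0.18 (adjusted p = 1.39e-05). Cyp2c54 rose by 1.81, Cyp2c50 by 1.76 and Cyp4f14, a fatty acid hydroxylase, by 1.52. Cyp2c members are close copies of each other, so their separate values are uncertain.

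Conjugation enzymes, which make metabolites soluble, rose in 17 of 25 members, with 0 falling and a median of 0.81. Gsta3, a glutathione transferase, stood at 7.24, 7.84, 8.12, 7.32 and 7.52 in ConA+BW245C livers and at 5.19, 6.35, 6.05, 5.73 and 5.65 in ConA+vehicle livers, and rose by 1.81 ± 0.19 (adjusted p = 2.71e-06). Inmt, an N-methyltransferase of indoleamines, rose by 2.52. The UDP-glucuronosyltransferases Ugt2b34 and Ugt2a3 rose by 1.41 and 0.92. Of 17 tested genes of the oxidative stress programme governed by Nrf2, 7 rose and 1 fell, or 47.1% called against 26.6% over all genes. Gstm1, another glutathione transferase, rose by 1.37 and Cat, catalase, by 0.91, whereas Hmox1, haem oxygenase 1, fell by 0.88. The median of this list was 0.09, and -0.06 within slide 4.

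Amino acid breakdown and the urea cycle rose in 21 of 34 members and fell in 1, with a median of 0.52. Gpt, alanine aminotransferase, stood at 5.5, 5.65, 5.93, 5.25 and 5.49 in ConA+BW245C livers and at 4.07, 4.66, 4.55, 4.06 and 4.83 in ConA+vehicle livers, without overlap. It rose by 1.13 ± 0.15 (adjusted p = 2.42e-05), and Prodh, proline dehydrogenase, rose by 1.15. Hpd and Hgd, consecutive enzymes of tyrosine breakdown, rose by 1.10 and 1.05. The single fall was Sdsl, a serine dehydratase-like enzyme named after its value was seen, by 0.65.

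Plasma proteins made by hepatocytes were next. Of 31 tested complement and coagulation genes 24 rose and 0 fell, with a median of 0.53. The groups did not overlap in 20 of them, all higher, against 12% higher without overlap over all genes. F13b, the carrier subunit of factor XIII, stood at 3.33, 3.57, 3.72, 2.94 and 3.38 in ConA+BW245C livers and at 1.93, 2.52, 2.38, 1.90 and 2.35 in ConA+vehicle livers, and rose by 1.17 ± 0.13 (adjusted p = 3.31e-06). Factor V (F5), heparin cofactor II (Serpind1) and factor VII (F7) rose by 0.87, 0.88 and 0.75. The acute phase list differed from this: 1 of 27 members rose and 1 fell, or 7.41% called against 26.6% over all genes, with a median of 0.14. Lbp, which carries lipopolysaccharide, rose by 0.51, and Steap4, a metalloreductase, fell by 0.75. The call of Lbp was lost with the slide term (0.32, adjusted p = 0.117) and without ConA+vehicle replicate 2, ConA+BW245C replicate 3 or ConA+BW245C replicate 5 (0.44 to 0.45, adjusted p between 0.0531 and 0.0638).

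Transcription factors of hepatocytes rose in 12 of 20 members, with 0 falling and a median of 0.45. Nr1i3, the xenobiotic receptor CAR, stood at 3.78, 3.95, 4.13, 3.42 and 3.84 in ConA+BW245C livers and at 2.44, 2.99, 2.75, 2.22 and 2.94 in ConA+vehicle livers. It rose by 1.15 ± 0.16 (adjusted p = 2.44e-05). Nr1i2, the xenobiotic receptor PXR, rose by 0.75 and Foxa2, a forkhead factor of liver development, by 0.71.

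Genes with sex-dimorphic or growth hormone-dependent levels in mouse liver rose in 13 of 20 members and fell in 2, with a median of 0.89, the highest median among the 48 lists. Igfals, the acid-labile subunit that stabilises circulating IGF complexes, stood at 1.51, 2.04, 2.25, 0.17 and 1.55 in ConA+BW245C livers and at -1.24, -0.02, -0.06, -0.89 and -0.4 in ConA+vehicle livers. The groups did not overlap, with ConA+BW245C replicate 4 the lowest of its group, and Igfals rose by 2.03 ± 0.29 (adjusted p = 3.27e-05). Ghr, the growth hormone receptor, rose by 0.93. The falls were the IGF-binding proteins Igfbp3 by 1.08 and Igfbp1 by 1.13, both named after their values were seen. The call of Igfbp1 (adjusted p = 0.0392) was lost without ConA+BW245C replicates 1 or 2 or ConA+vehicle replicates 1, 2, 4 or 5 (-1.15 to -0.67, adjusted p between 0.0545 and 0.131).

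Carbohydrate genes rose in 8 of 19 members and fell in 2, with a median of 0.45. Slc2a2, the liver glucose transporter, rose by 1.22, Gys2, liver glycogen synthase, by 0.76 and Pygl, liver glycogen phosphorylase, by 0.63. Fatty acid oxidation rose in 14 of 27 members and fell in 1, with a median of 0.44. Without ConA+BW245C replicate 4 it rose in 19 and fell in 1. Acsl1, which activates long-chain fatty acids, rose by 1.14, Hadh, a beta-oxidation dehydrogenase, by 1.03 and Acot3, an acyl-CoA thioesterase, by 1.80. The member that fell was Pdk4, the kinase that shuts down pyruvate dehydrogenase. Pdk4 stood at 0.58, 0.05, 1.74, 0.76 and 1.00 in ConA+BW245C livers and at 2.93, 2.63, 2.10, 2.66 and 2.28 in ConA+vehicle livers, and fell by 1.69 ± 0.31 (adjusted p = 0.000428).

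Cholesterol synthesis genes rose in 9 of 25 members, with 0 falling and a median of 0.48. Lipogenesis genes rose in 4 of 19 members, or 21.1%, near the 17.6% over all genes, with 0 falling and a median of 0.50. Insig1, a sterol sensor of the endoplasmic reticulum, rose by 0.97, Stard4, a sterol carrier, by 0.60 and Dgat2, which makes triglycerides, by 0.51. Stard4 was not called with the mean of its probes (0.25, adjusted p = 0.0786). Lipid droplet and lipoprotein genes fell in 3 of 22 members and rose in 2, or 22.7% called, near the 26.6% over all genes. Their median was -0.05, and without ConA+BW245C replicate 4 they fell in 3 and rose in 5. Cidec and Cidea, which promote droplet fusion, fell by 1.82 and 1.17 and Plin2, a droplet coat protein, by 0.53, whereas Cideb, which acts in lipoprotein secretion, rose by 0.82 and Apoc3, an apolipoprotein, by 0.40. All 3 falls were lost without ConA+vehicle replicate 4 (-1.37, -1.0 and -0.43, adjusted p between 0.056 and 0.0737). Cidea was also lost without ConA+vehicle replicate 5 (-1.01), Plin2 without ConA+vehicle replicate 5 (-0.47) or ConA+BW245C replicate 2 (-0.48), and Apoc3 without ConA+BW245C replicate 3 (0.31).

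**Figure D3:**
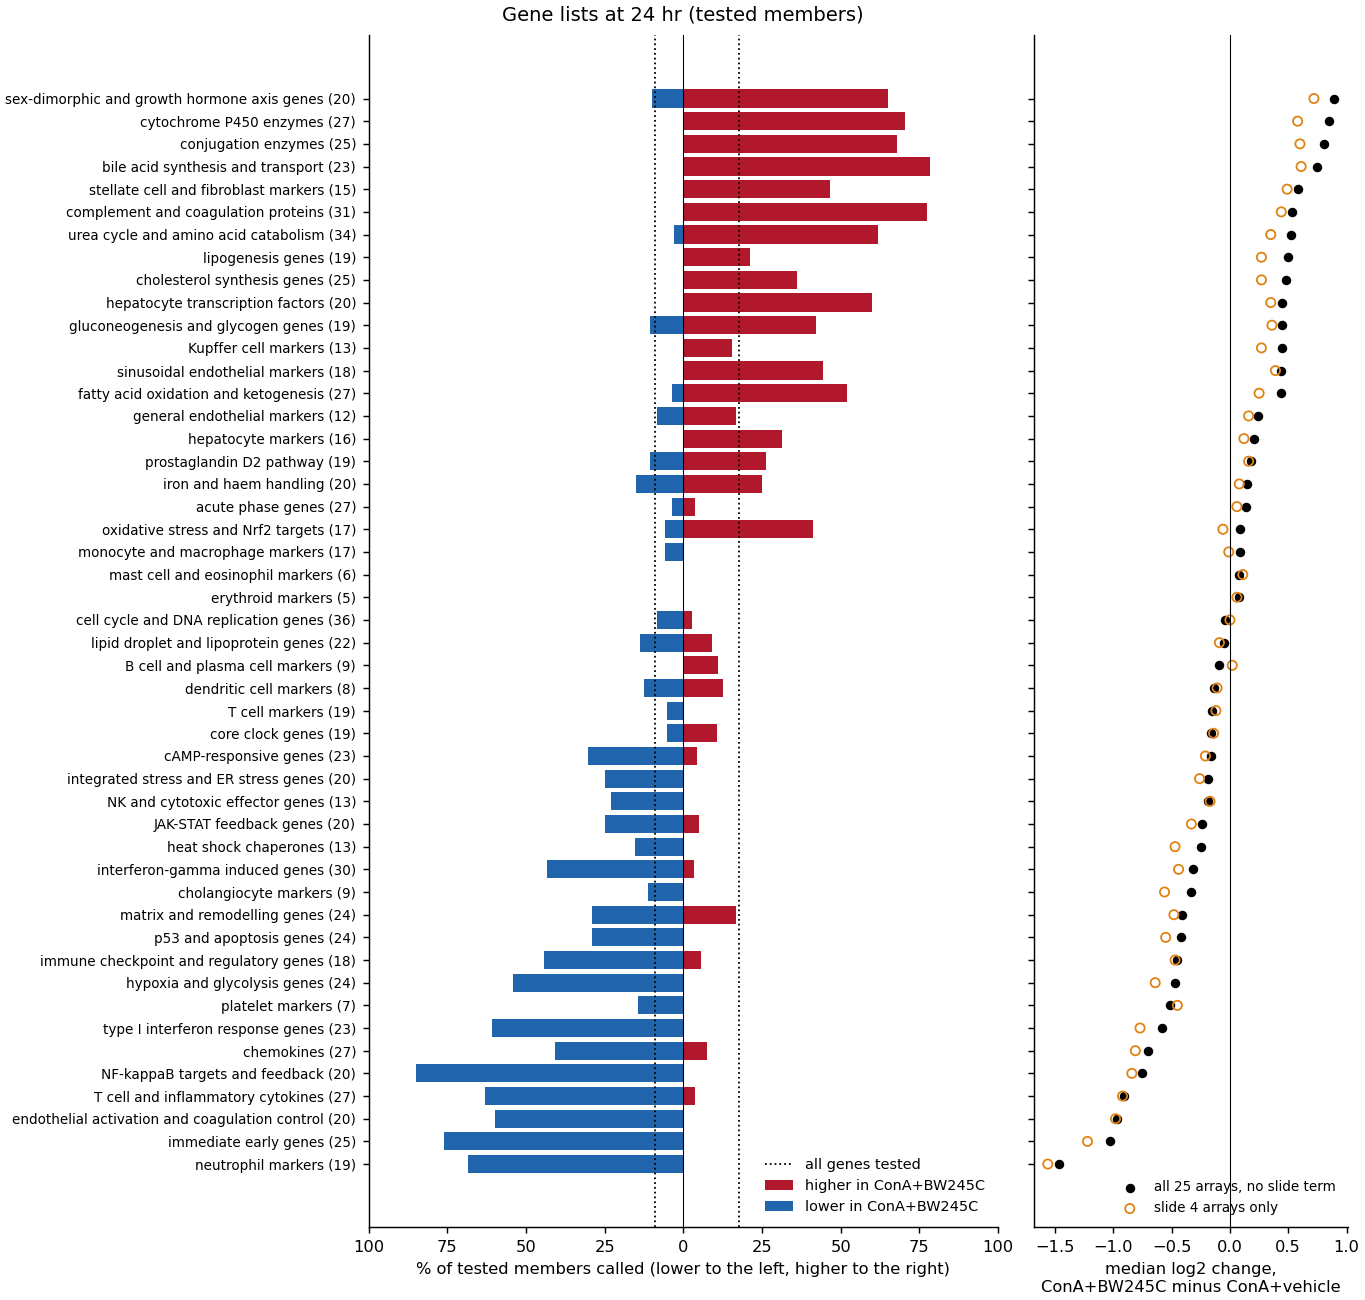
Left, percent of the tested members of each of the 48 gene lists that were called higher (red, right) or lower (blue, left) in ConA+BW245C than in ConA+vehicle livers at 24 hr, with the number tested in parentheses and dotted lines at the shares over all genes, 17.6% and 8.95%. Right, the median log2 change of each list over all arrays (black) and within slide 4 (open circles), from 0.89 for sex-dimorphic and growth hormone axis genes to -1.46 for neutrophil markers.

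Neutrophil-attracting chemokines were the largest falls. Cxcl3 stood at -4.58, -6.18, -5.85, -3.88 and -3.03 in ConA+BW245C livers and at -0.73, -0.33, -1.05, -1.40 and -0.81 in ConA+vehicle livers. Cxcl2 stood at -2.46, -4.36, -3.30, -1.59 and -1.07 in ConA+BW245C livers and at 1.47, 0.96, 0.39, 0.84 and 0.48 in ConA+vehicle livers. In neither gene did the groups overlap, and ConA+BW245C replicates 4 and 5 were the highest of their group in both. Cxcl3 fell by 3.84 ± 0.49 (14.3-fold; adjusted p = 1.25e-05), with 2 of 5 ConA+BW245C arrays well above background. Cxcl2 fell by 3.38 ± 0.45 (10.4-fold; adjusted p = 2.06e-05), with 4 of 5 such arrays above it.

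Cxcl1 stood at 2.23, 1.20, 1.84, 2.41 and 2.47 in ConA+BW245C livers and at 4.30, 3.25, 3.85, 4.20 and 3.92 in ConA+vehicle livers, and fell by 1.87 ± 0.24 (adjusted p = 1.31e-05). Cxcl5, another ligand of the neutrophil receptor CXCR2, fell by 2.31. Over the 27 tested chemokines 11 fell and 2 rose, with a median of -0.70, against 8.95% falling over all genes. Cxcl10, an interferon-induced ligand of the T cell receptor CXCR3, fell by 1.61. The 2 that rose were Cxcl12, which retains leukocytes in tissue and marrow, by 0.67 and Ccl9 by 0.59, both named after their values were seen.

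The Cxcl genes lie together on chromosome 5, and the starts of 3 that fell together are shown for the letters they share. Each is the 250 bases before the RefSeq start (GRCm38.p6, plus strand): chr5:90903649-90903898 for Cxcl2, chr5:90785851-90786100 for Cxcl3 and chr5:90890995-90891244 for Cxcl1. Capitals mark matches on either strand to a form of the NF-kappaB motif, read as GGG, then any 2 bases, then TTTCC.
Cxcl2: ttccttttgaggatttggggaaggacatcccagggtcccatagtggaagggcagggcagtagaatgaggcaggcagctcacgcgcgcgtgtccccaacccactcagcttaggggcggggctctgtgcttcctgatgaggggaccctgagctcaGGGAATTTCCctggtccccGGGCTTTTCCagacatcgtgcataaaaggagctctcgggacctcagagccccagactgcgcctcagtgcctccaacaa
Cxcl3: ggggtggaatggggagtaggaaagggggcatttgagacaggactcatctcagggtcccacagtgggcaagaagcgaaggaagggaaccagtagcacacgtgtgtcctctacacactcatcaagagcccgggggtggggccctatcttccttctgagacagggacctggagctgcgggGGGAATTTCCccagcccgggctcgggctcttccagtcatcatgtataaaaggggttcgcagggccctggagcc
Cxcl1: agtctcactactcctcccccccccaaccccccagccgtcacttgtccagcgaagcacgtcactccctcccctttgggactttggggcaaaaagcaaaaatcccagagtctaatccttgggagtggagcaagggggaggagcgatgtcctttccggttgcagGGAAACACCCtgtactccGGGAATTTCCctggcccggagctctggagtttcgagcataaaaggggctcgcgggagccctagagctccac
Cxcl2 holds 2 matches, Cxcl3 1 and Cxcl1 2, and all 3 hold GGGAATTTCC, beginning 97, 73 and 71 bases before the start of Cxcl2, Cxcl3 and Cxcl1. The motif was found in 1.41% of all 32851 promoters, in 1.49% of those of genes tested, in 4.36% of the 298 of genes that fell at least 2-fold and in 1.2% of the 333 of genes that rose at least 2-fold. The palindrome TGACGTCA, a cyclic AMP response element, was found in 1.55% of all promoters, in 2.23% of the promoters of genes tested, in 2.35% of those of the falls and in 0% of those of the rises, so that its share among the falls was near that of the genes tested. Motifs were chosen with the changes known, the 3 genes are near copies of each other, and the shares carry no test.

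Markers of neutrophils fell in 13 of 19 tested members, with 0 rising and a median of -1.46, the lowest of the 48 lists. Retnlg, a resistin-like protein of neutrophils, stood at 0.72, -0.80, -0.15, 1.02 and 1.36 in ConA+BW245C livers and at 3.07, 2.80, 2.48, 2.73 and 2.68 in ConA+vehicle livers, and fell by 2.32 ± 0.36 (adjusted p = 8.70e-05). S100a9, a subunit of calprotectin, fell by 1.74, Mmp8, neutrophil collagenase, by 2.26 and the stefin A cysteine protease inhibitors Stfa1 and Stfa2 by 2.27 and 1.07. Stfa1 was well above background on 2 of 5 ConA+BW245C arrays. The stefin genes are near-identical copies and their separate values are uncertain. In whole liver, fewer cells of a type and less RNA per cell cannot be told apart. The summed level of the list was 955 to 1070 in ConA+BW245C livers, 1120 to 1190 in ConA+vehicle livers and 133 to 143 in untreated livers.

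Other large falls involved prostaglandin synthesis and myeloid or stress genes. Ptgs2, the inducible cyclooxygenase, stood at -3.12, -6.01, -3.72, -2.78 and -2.58 in ConA+BW245C livers and at 0.02, -0.21, -1.23, -0.34 and -1.13 in ConA+vehicle livers, and fell by 3.07 ± 0.52 (adjusted p = 0.000182), with 4 of 5 ConA+BW245C arrays well above background. Prok2, a secreted factor of myeloid cells, stood at -5.95, -6.29, -5.70, -5.21 and -3.59 in ConA+BW245C livers and at -2.08, -2.29, -2.97, -1.96 and -2.80 in ConA+vehicle livers. It fell by 2.93 ± 0.33 (adjusted p = 4.54e-06), and 1 of 5 ConA+BW245C arrays was well above background. Ankrd1, an injury-induced nuclear cofactor, fell by 2.84 with 3 of 5 ConA+BW245C arrays above background.

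Sult1e1, the estrogen sulfotransferase, fell by 2.70, Slc10a6, a transporter of sulfated steroids, by 2.45 and Cstdc4, a stefin-related gene measured on 4 of 5 ConA+BW245C arrays, by 2.41. Ankrd22 fell by 2.60 and Adm2, a vasodilator peptide of the adrenomedullin family, by 2.35, each with 2 of 5 ConA+BW245C arrays above background. Csf3, the granulocyte growth factor G-CSF, was not well above background on any ConA+BW245C array and was at least 1.92-fold lower there than in ConA+vehicle livers (adjusted p = 0.0414). The call of Csf3 was lost with the slide term (adjusted p = 0.0915) and without any 1 array of the 2 groups other than ConA+vehicle replicate 3 (adjusted p between 0.0536 and 0.0905).

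**Figure D4:**
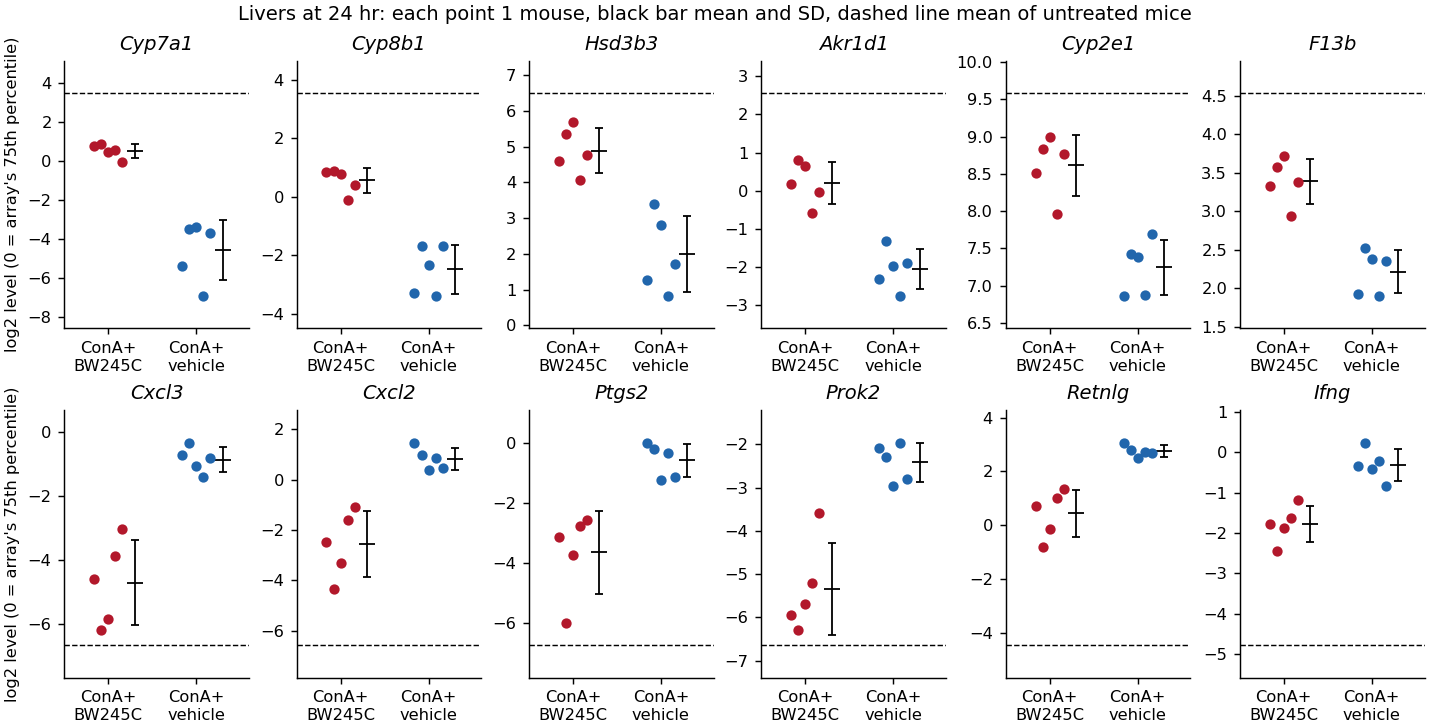
Log2 level per mouse of 12 genes in ConA+BW245C (red, left) and ConA+vehicle (blue, right) livers at 24 hr, with the mean and SD of each group (black) and the mean of untreated livers (dashed line). In the top row the 5 ConA+BW245C livers lie above and in the bottom row below every ConA+vehicle liver, as in Cyp7a1 (5.10 higher) and Cxcl3 (3.84 lower).

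T cell and inflammatory cytokines fell in 17 of 27 tested members and rose in 1, with a median of -0.91. Without ConA+BW245C replicate 4 they fell in 15 and rose in 1. Ifng, interferon-gamma, a main effector of ConA hepatitis, stood at -1.77, -2.44, -1.88, -1.64 and -1.19 in ConA+BW245C livers and at -0.33, 0.24, -0.41, -0.22 and -0.84 in ConA+vehicle livers. It fell by 1.47 ± 0.25 (adjusted p = 0.000166). Il6 stood at -1.07, -1.21, -2.37, -0.98 and -1.44 in ConA+BW245C livers and at 0.03, -0.20, -0.53, 0.19 and 0.07 in ConA+vehicle livers, and fell by 1.33 ± 0.34 (adjusted p = 0.00606). Both were separated in all 10 livers.

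Il4, the type 2 cytokine of NKT and T helper cells, fell by 0.96, Il1b by 1.56 and Osm, oncostatin M, by 0.92. The regulatory cytokine Il10 fell by 1.03, with 2 of 5 ConA+BW245C arrays well above background. Csf2, encoding GM-CSF, was above background on 0 ConA+BW245C and 2 ConA+vehicle arrays, and no fold is given. The member that rose was Il18, by 0.52, named after its value was seen. Tnf, the tumour necrosis factor, stood at -1.84, -3.47, -1.71, -1.65 and -1.01 in ConA+BW245C livers and at -1.01, -0.49, -0.90, -0.75 and -2.0 in ConA+vehicle livers. The groups overlapped, and its difference of -0.91 ± 0.37 did not pass (adjusted p = 0.0757). Without ConA+vehicle replicate 5 it was -1.15 (adjusted p = 0.0263), without ConA+BW245C replicate 5 it was -1.14 (adjusted p = 0.03), and with the slide term -1.26 (adjusted p = 0.0264).

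Genes driven by inflammatory signals fell in wide sets. Of 20 tested targets and feedback regulators of NF-kappaB 17 fell and 0 rose, with a median of -0.75. Tnfaip3, which encodes the feedback inhibitor A20, stood at 1.26, 0.59, 0.66, 1.45 and 1.45 in ConA+BW245C livers and at 2.63, 2.33, 2.15, 2.69 and 1.72 in ConA+vehicle livers, and fell by 1.22 ± 0.19 (adjusted p = 8.16e-05). Icam1, an adhesion molecule for leukocytes, fell by 1.08 and Relb, an NF-kappaB subunit, by 0.96. The groups did not overlap in 7 of the 20, all lower, against 5.41% lower without overlap over all genes.

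Immediate early genes, which respond within minutes to many signals, fell in 19 of 25 members with 0 rising and a median of -1.03. The AP-1 subunits Fosl1 and Fosl2 fell by 1.61 and 0.87, Maff, a small Maf factor, by 1.71 and Klf4, a Kruppel-like factor, by 1.20. Fosl1 stood at -2.44, -3.29, -2.32, -1.85 and -1.82 in ConA+BW245C livers and at -0.54, -0.59, -0.87, -0.93 and -0.73 in ConA+vehicle livers. Feedback genes of JAK-STAT signalling fell in 5 of 20 members and rose in 1, or 30% called, against 26.6% over all genes. The cytokine inhibitors Socs3 and Socs1 fell by 1.44 and 1.58, Bcl3 by 0.89, Osmr, the receptor of oncostatin M, by 1.12 and the kinase Pim1, named after its value was seen, by 1.26. Stat5b, a mediator of growth hormone signals, rose by 0.40.

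Interferon-induced genes fell in part. Of 23 genes of the type I response 14 fell and 0 rose, with a median of -0.58. Without ConA+BW245C replicate 4, 10 of them fell. The groups were separated downwards in 4 of the 23, against 5.41% over all genes. Oas2, a sensor of double-stranded RNA, fell by 1.08, Usp18, which removes ISG15, by 0.90 and Rsad2, the antiviral protein viperin, by 1.39. Of 30 interferon-gamma induced genes 13 fell and 1 rose, with a median of -0.32. Without ConA+BW245C replicate 4, 9 of them fell and 1 rose. Irf1, a transcription factor of this response, fell by 0.94 ± 0.15 (adjusted p = 8.61e-05), Nos2, the inducible nitric oxide synthase, by 1.81 and Cd274, which encodes the checkpoint ligand PD-L1, by 1.51. Nos2 stood at 1.76, 0.56, 1.18, 2.28 and 2.65 in ConA+BW245C livers and at 3.89, 3.89, 2.99, 3.94 and 2.79 in ConA+vehicle livers. The single rise, named after its value was seen, was the MHC class II gene H2-Eb1 (0.68, adjusted p = 0.0382). Its call was lost with the slide term (0.66, adjusted p = 0.0836) and without ConA+BW245C replicates 3 or 5 or ConA+vehicle replicates 1, 3 or 5 (0.48 to 0.70, adjusted p between 0.0544 and 0.122).

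Checkpoint and regulatory genes fell in 8 of 18 members and rose in 1, or 50% called against 26.6% over all genes. Pdcd1lg2, the checkpoint ligand PD-L2, fell by 0.86, while Nt5e, the ectoenzyme CD73 that makes adenosine, rose by 1.10 ± 0.17 (adjusted p = 8.61e-05). Nt5e stood at 2.74, 2.66, 2.58, 2.33 and 1.90 in ConA+BW245C livers and at 1.12, 1.41, 0.95, 1.70 and 1.54 in ConA+vehicle livers.

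Endothelial activation and coagulation control fell in 12 of 20 members, with 0 rising and a median of -0.97. Sele, the endothelial selectin E, fell by 2.34, with 1 of 5 ConA+BW245C arrays, that of replicate 4, well above background. Without that replicate Sele was at least 1.75-fold lower in ConA+BW245C livers (limma adjusted p = 6.68e-07). Edn1, the vasoconstrictor endothelin 1, fell by 1.85, Plaur, the urokinase receptor, by 1.55 and Procr, the endothelial protein C receptor, by 1.45. Procr stood at 2.29, 0.98, 1.81, 2.67 and 2.83 in ConA+BW245C livers and at 3.70, 3.81, 3.45, 3.93 and 2.93 in ConA+vehicle livers. Edn1 was well above background on 3 of 5 ConA+BW245C arrays.

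Hypoxia and glycolysis genes fell in 13 of 24 members, with 0 rising and a median of -0.47. Hk2, an inducible hexokinase, fell by 1.16, Pfkfb3, a glycolytic activator, by 1.20, Egln3, an oxygen-sensing hydroxylase, by 1.09 and Ero1a, an oxidoreductase of the endoplasmic reticulum, by 1.44. Of 24 p53 and apoptosis genes 7 fell and 0 rose, or 29.2%, against 8.95% falling and 26.6% called over all genes. Mdm2, the ligase that degrades p53, fell by 0.56 and Casp4, an inflammatory caspase, by 1.10. Stress genes of the integrated response fell in 5 of 20 members and rose in 0. This was 25%, against 8.95% falling and 26.6% called over all genes, with a median of -0.19. Among the falls were Atf3 by 1.64 and Asns, asparagine synthetase, by 1.25. Of 13 heat shock chaperones 2 fell, or 15.4%, against 8.95% over all genes, and the larger fall was Hspa1a, an inducible Hsp70, by 1.66.

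Matrix and remodelling genes fell in 7 of 24 members and rose in 4, or 45.8% called against 26.6% over all genes. Without ConA+BW245C replicate 4 they fell in 10 and rose in 4. Thbs1, the matrix protein thrombospondin 1, fell by 1.92 ± 0.26 (adjusted p = 2.06e-05). The 4 that rose, named after their values were seen, were the fibrillar collagen genes Col1a1 (0.76), Col1a2 (0.74) and Col3a1 (0.68) and the protease inhibitor Timp2 (0.57). Col1a1 was not called without ConA+vehicle replicate 1 or ConA+BW245C replicate 3, and Col3a1 not without ConA+vehicle replicates 1 or 5, ConA+BW245C replicates 2 or 3, or with the slide term (0.56, adjusted p = 0.0868). Timp2 was not called with the mean of its probes (0.22, adjusted p = 0.227). Of 36 cell cycle and DNA replication genes 3 fell and 1 rose, or 11.1% called, below the 26.6% over all genes. Tyms, thymidylate synthase, fell by 1.19 and the thymidine kinase Tk1 rose by 1.24, although both supply thymidine nucleotides. Of 19 core clock genes 1 fell and 2 rose, or 15.8% called, also below the 26.6% over all genes. The fall was Ciart, a repressor of the clock, by 2.01, with 3 of 5 ConA+BW245C arrays well above background. Of 20 iron genes 5 rose and 3 fell, or 40% called against 26.6% over all genes. Hfe and Tfr2, which take part in iron sensing, rose by 0.65 and 0.56 and Fech, which completes haem, by 0.64.

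The drug's own pathway was at the limit of the arrays. Ptgdr, which encodes DP1, and Ptgdr2, the other prostaglandin D2 receptor, were well above background on 0 of 25 arrays, and Hpgds, the haematopoietic prostaglandin D synthase, on 2 of 25, so none was tested. Ptgds, the lipocalin-type synthase, stood at -1.29, -1.57, -1.05, -2.23 and -1.25 in ConA+BW245C livers and at 0.29, -1.26, -0.10, 0.01 and -0.44 in ConA+vehicle livers. Its difference of -1.18 ± 0.44 did not pass (adjusted p = 0.053), and it passed without ConA+vehicle replicate 2 (-1.42, adjusted p = 0.029).

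Over the 19 tested genes of prostaglandin D2 and prostanoid metabolism 5 rose and 2 fell, or 36.8% called against 26.6% over all genes. Hpgd, the dehydrogenase that inactivates prostaglandins, stood at 3.34, 3.68, 3.79, 3.17 and 3.48 in ConA+BW245C livers and at 2.45, 2.74, 2.52, 2.60 and 2.92 in ConA+vehicle livers, and rose by 0.85 ± 0.12 (adjusted p = 3.71e-05). Slco2a1, which carries prostaglandins into cells, rose by 0.71 and Cbr1, a carbonyl reductase that also acts on prostaglandins, by 0.72. Ptges, a prostaglandin E synthase, rose by 0.29 with its brightest probe but had the opposite sign, -0.16, with the mean of its probes. Ptgs1, the constitutive cyclooxygenase, rose by 0.49. That call was lost with the slide term (0.40, adjusted p = 0.0803) and without ConA+BW245C replicates 1 or 3 or ConA+vehicle replicates 1, 3, 4 or 5. The falls were Ptgs2 and Ptgis, prostacyclin synthase, by 0.72. Ptgs1 and Ptgis were named after their values were seen.

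Genes that respond to cyclic AMP, the messenger of DP1, fell in 7 of 23 members and rose in 1, with a median of -0.16. The share called was 34.8%, against 26.6% over all genes, of which 8.95% fell. Without ConA+BW245C replicate 4 they fell in 9 and rose in 1. Crem, a cyclic AMP-inducible factor, stood at 1.32, 0.95, 1.29, 1.54 and 1.75 in ConA+BW245C livers and at 2.27, 1.95, 1.87, 2.56 and 2.17 in ConA+vehicle livers, and fell by 0.80 ± 0.16 (adjusted p = 0.000673). Pde4b, a phosphodiesterase that degrades cyclic AMP, fell by 0.86. The single rise was Pde3b, another phosphodiesterase, by 0.73.

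Markers of resident liver cells came next. Sinusoidal endothelial markers rose in 8 of 18 members, or 44.4%, against 17.6% over all genes, with 0 falling and a median of 0.44. Clec4g, a lectin of these cells, stood at 1.14, 1.35, 1.19, -0.12 and 0.92 in ConA+BW245C livers and at -0.50, -0.16, -0.24, -0.66 and -0.95 in ConA+vehicle livers, and rose by 1.40 ± 0.25 (adjusted p = 0.000324). The mannose receptor Mrc1 rose by 1.01 and Oit3 by 0.93. In all 3 the lowest ConA+BW245C liver was replicate 4. The summed level of the list was 54.1 to 61.6 in ConA+BW245C livers, 49.9 to 56.4 in ConA+vehicle livers and 130 to 153 in untreated livers, and Wnt2 was not above background on any array at 24 hr.

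Stellate cell and fibroblast markers rose in 7 of 15 members, with 0 falling and a median of 0.58. Lum, the matrix proteoglycan lumican, rose by 0.95 and Des, the filament protein desmin, by 0.80. The summed level of these markers overlapped between groups, at 140 to 152 in ConA+BW245C livers, 117 to 153 in ConA+vehicle livers and 244 to 255 in untreated livers. Of 13 Kupffer cell markers 2 rose, or 15.4%, near the 17.6% over all genes: Slc40a1, the iron exporter ferroportin, by 0.98, and Vsig4, a complement receptor, by 0.96. Slc40a1 stood at 3.41, 3.51, 3.65, 3.32 and 3.24 in ConA+BW245C livers and at 2.26, 2.75, 2.46, 2.46 and 2.31 in ConA+vehicle livers. Without ConA+BW245C replicate 4, 4 of the 13 rose, among them C6, a complement component (0.61, adjusted p = 0.0446, against 0.54 and 0.0623 with it), and Cd5l, a scavenger protein of macrophages (0.88, adjusted p = 0.0379, against 0.64 and 0.151). C6 also passed without ConA+BW245C replicate 5 (0.61, adjusted p = 0.0489) or ConA+vehicle replicate 3 (0.65, adjusted p = 0.0362). The Vsig4 spot of ConA+vehicle replicate 1 was left out as an outlier spot, and the call did not hold with the slide term (0.78, adjusted p = 0.253) or without any 1 array other than ConA+BW245C replicate 4 or ConA+vehicle replicate 4 (0.71 to 0.97, adjusted p between 0.0588 and 0.16). Of 16 hepatocyte markers 5 rose, or 31.2%, against 17.6% over all genes, and the list's median was 0.21. Among them Ttr, transthyretin, rose by 0.59.

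Lymphocyte and monocyte markers were described next. T cell markers fell in 1 of 19 members, or 5.26%, against 8.95% over all genes, with a median of -0.15. Their summed level was 45 to 79.4 in ConA+BW245C livers, 49.8 to 84.4 in ConA+vehicle livers and 44.1 to 83.4 in untreated livers. Such a sum follows its bright members. The median difference from untreated livers over the members was 2.65 in ConA+vehicle and 2.33 in ConA+BW245C livers. The member that fell was Ctla4, an inhibitory receptor, by 0.89, with 1 of 5 ConA+BW245C and 4 of 5 ConA+vehicle arrays well above background. Its call was lost without any 1 of ConA+BW245C replicates 1 to 3 or ConA+vehicle replicates 1, 2 and 5 (-0.91 to -0.75, adjusted p between 0.0537 and 0.0899).

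NK and cytotoxic effector genes fell in 3 of 13 members, or 23.1%, against 8.95% over all genes, and in 2 without ConA+BW245C replicate 4, with summed levels of 21.8 to 41.6 in ConA+BW245C livers, 33.8 to 46.2 in ConA+vehicle livers and 8.55 to 9.92 in untreated livers. Nkg7, a granule protein, fell by 0.19 with its brightest probe and was not called with the mean of its probes (adjusted p = 0.175), Fasl, the death ligand, by 0.53 and Gzmb, granzyme B, by 0.80. The call of Nkg7 was lost without ConA+vehicle replicate 1 or 2, that of Fasl without ConA+BW245C replicate 2 or 3 or ConA+vehicle replicate 4, and that of Gzmb without any 1 array other than the 2 numbered 5. Ctla4, Nkg7, Fasl and Gzmb were named after their values were seen. Of 17 monocyte and macrophage markers 1 fell, or 5.88%, below the 8.95% over all genes. It was Cd14, a coreceptor for lipopolysaccharide, by 1.5. Cd14 stood at 3.86, 3.16, 3.36, 3.67 and 4.15 in ConA+BW245C livers and at 5.06, 4.83, 4.75, 5.99 and 5.04 in ConA+vehicle livers. Platelet markers fell in 1 of 7 members, or 14.3%, against 8.95% over all genes. The fall was Itgb3, an integrin subunit, by 0.80, and the other 6 platelet markers were not called. Their summed level was 3.19 to 6.33 in ConA+BW245C livers, 6.72 to 9.25 in ConA+vehicle livers and 2.5 to 3.2 in untreated livers. Itgb3 was bright, at means of 1.58 in ConA+BW245C and 2.38 in ConA+vehicle livers, and weighs heavily in this sum. Erythroid and mast cell or eosinophil markers had 0 calls in 5 and 6 tested members by limma.

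Few calls stood in the remaining cell lists. The share called was 11.1% of cholangiocyte, 25% of general endothelial, 25% of dendritic cell and 11.1% of B cell and plasma cell markers. None of these shares exceeded the 26.6% over all genes. Cholangiocyte markers fell in 1 of 9, Cldn7, a tight junction protein, by 0.40 (adjusted p = 0.000393). Of 12 general endothelial markers Sox18, a transcription factor, rose by 0.70, Emcn, a mucin-like surface protein, by 0.59, and Vwf, von Willebrand factor, fell by 0.54. Of 8 dendritic cell markers Clec9a, a receptor for dead cells, rose by 0.59 and Ly6d fell by 1.05. Of 9 B cell and plasma cell markers 1 rose, Jchain, the joining chain of antibodies, by 0.84. With the slide term Sox18 (0.66, adjusted p = 0.0845), Emcn (0.54, adjusted p = 0.0774), Clec9a (0.51, adjusted p = 0.127) and Jchain (0.67, adjusted p = 0.0752) did not pass. Each of these calls but Cldn7 was also lost without at least 1 array. The arrays were ConA+BW245C replicates 1, 3 or 5 and ConA+vehicle replicates 4 or 5 for Sox18 (0.55 to 0.70), ConA+BW245C replicates 3 or 5 and ConA+vehicle replicate 5 for Emcn (0.50 to 0.54), and ConA+BW245C replicates 2, 3 or 4 and ConA+vehicle replicates 1, 3 or 4 for Vwf (-0.52 to -0.40). They were ConA+BW245C replicates 1, 2, 3 or 5 and ConA+vehicle replicates 1, 3 or 5 for Clec9a (0.38 to 0.60), ConA+BW245C replicates 2 or 4 and ConA+vehicle replicates 4 or 5 for Ly6d (-0.98 to -0.68), and ConA+BW245C replicate 3 and ConA+vehicle replicate 3 for Jchain (0.72 and 0.68). Without ConA+BW245C replicate 4, lists with few calls also changed in count. T cell markers then fell in 2 members and rose in 1, cholangiocyte and platelet markers fell in 2 each, and dendritic cell and general endothelial markers fell in 0. Acute phase genes then rose in 2, heat shock chaperones fell in 1, oxidative stress genes fell in 2 and integrated stress genes rose in 1.

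The levels of untreated livers place these changes. Among the genes above, untreated livers had a mean of 3.54 for Cyp8b1, 2.55 for Akr1d1, 9.58 for Cyp2e1 and 4.53 for F13b, above both groups at 24 hr. For genes that fell, untreated livers had a mean of -6.65 for Cxcl3, -6.57 for Cxcl2, -4.47 for Retnlg and -4.78 for Ifng, below both groups. The ConA+BW245C mean lay between those of the ConA+vehicle and the untreated livers in these 8 genes. Not all genes named above did so, and no count over all genes was taken. The means of Igfbp3 were -0.98 in ConA+BW245C, 0.11 in ConA+vehicle and 0.69 in untreated livers. Those of Col1a1 were 2.26, 1.49 and 1.0, so that in both genes the ConA+BW245C mean lay farther from untreated livers. For Sult1e1 the means were 0.11 in ConA+BW245C, 2.81 in ConA+vehicle and 0.02 in untreated livers. For Pdk4 they were 0.83, 2.52 and 2.26, so that the ConA+BW245C mean was below both others.

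The effect at 24 hr was set against the effect of the same drug at 3 hr, measured in other mice with their own vehicle controls. All 5 ConA+BW245C arrays at 3 hr lay on slide 3 with 2 of the 5 ConA+vehicle arrays of that time. At 3 hr 4323 genes passed, 28.6% of those tested, with 1776 higher (11.8%) and 2547 lower (16.9%). The effects differed between the times in 4538 genes (30%), with 2908 more positive (19.3%) and 1630 more negative (10.8%) at 24 hr, beside a median shift of 0.10 over all genes. With the slide term 928 genes passed, and 734 of them had also passed without it in the same direction. Of the 4013 genes called at 24 hr, 1052 were called at 3 hr as well: 259 higher and 470 lower at both times, 224 higher at 24 hr and lower at 3 hr, and 99 lower at 24 hr and higher at 3 hr. With the authors' scaled values 32% of the differences were more positive at 24 hr, against 64.1% here.

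Metabolic lists were then compared between the times. The bile acid list had a median change of 0.75 at 24 hr and -0.02 at 3 hr, and in 17 of its 23 members the difference between the times passed. Cyp8b1 differed by -0.26 at 3 hr (adjusted p = 0.58), and its effects differed between the times by 3.31 ± 0.47 (adjusted p = 8.84e-05). Complement and coagulation genes had a median of 0.53 at 24 hr and -0.16 at 3 hr, with the difference passing in 23 of 31. For F13b the effects differed by 1.43 (adjusted p = 2.16e-05), and for Cyp2e1 by 1.81 (adjusted p = 6.77e-05). All 3 genes passed with the slide term as well.

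Inflammatory genes fell into separate patterns over time. Neutrophil markers had a median of -1.46 at 24 hr and -0.12 at 3 hr, and the difference was negative and passed in 12 of 19. Chemokines had medians of -0.70 at 24 hr and -0.82 at 3 hr. The difference passed as positive in 6 and as negative in 5 of the 27. Cxcl5 had fallen by 1.17 at 3 hr (adjusted p = 0.00705). Its difference between the times passed without the slide term (adjusted p = 0.048) but not with it (adjusted p = 0.299). Cxcl3 had a difference of 0.40 at 3 hr (adjusted p = 0.571) and the effects differed by -4.23 (adjusted p = 0.000262). Ptgs2 and Ankrd1, by contrast, had already fallen at 3 hr, Ptgs2 by 3.02 (adjusted p = 0.000224), while Ankrd1 was not well above background on any ConA+BW245C array of that time and was at least 3.92-fold lower (adjusted p = 2.51e-06). For them a difference between the times did not pass (adjusted p = 0.97 and 0.277). Immediate early genes had medians of -1.03 at 24 hr and -0.88 at 3 hr, and type I interferon genes of -0.58 and -0.82.

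Some genes moved in opposite directions at the 2 times. Il4 was 1.10 higher at 3 hr (adjusted p = 2.74e-05) and 0.96 lower at 24 hr. Pdk4 was 2.15 higher at 3 hr (adjusted p = 4.26e-05) and 1.69 lower at 24 hr. Itgb3 was 0.89 higher at 3 hr (adjusted p = 0.00547) and 0.80 lower at 24 hr. The difference between the times passed for all 3, also with the slide term. Il10 was not well above background on any ConA+vehicle array at 3 hr. It was at least 1.23-fold higher in ConA+BW245C livers then (adjusted p = 0.0435) and 1.03 lower at 24 hr, and its difference passed without the slide term (adjusted p = 0.00145) but not with it (adjusted p = 0.0692).

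**Figure D5:**
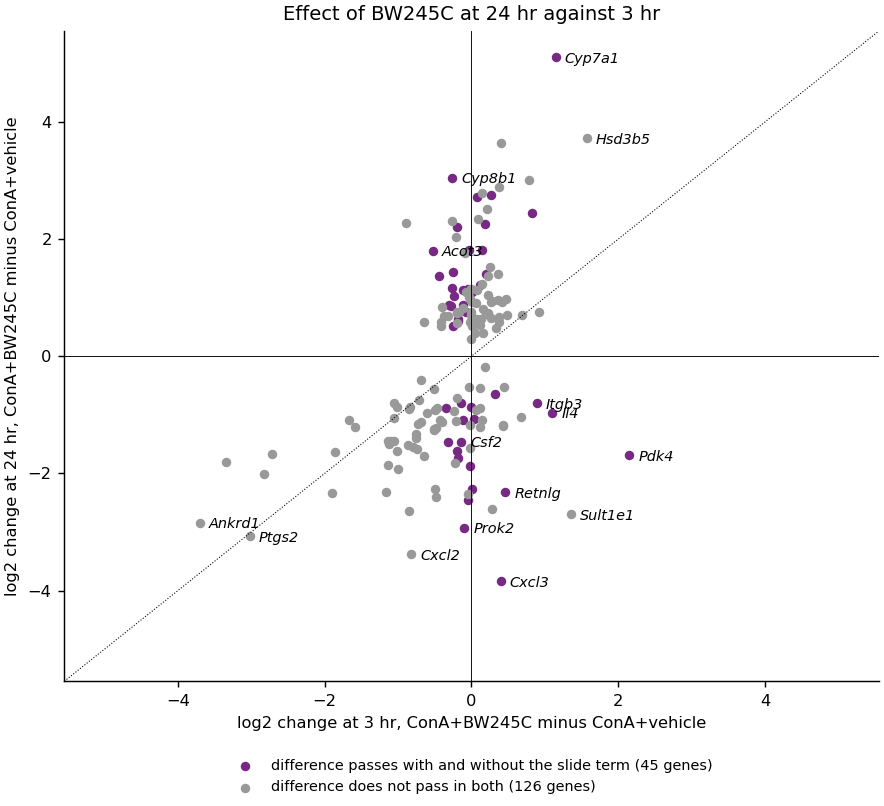
Change in ConA+BW245C minus ConA+vehicle livers at 3 hr (x axis) and at 24 hr (y axis), both log2, for the 171 genes followed individually, with the dotted line where the effects are equal. Purple points are the 45 genes whose effects differed between the times both with and without the slide term, such as Cyp8b1 (-0.26 at 3 hr, 3.05 at 24 hr) and Pdk4 (2.15 and -1.69), and Ptgs2 lies near the line of equal effects.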

How the data were processed

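Liver RNA of 25 mice, 5 in each of 5 groups, was measured on 1-colour Agilent arrays, 1 per mouse. The deposited scanner files hold a Cy3 intensity per spot that Agilent Feature Extraction had background-subtracted and spatially detrended. Its version was 10.7.3.1 per the file headers and 9.1 per the submitters' processing notes, with probes designed on mm9 per the file headers. The authors' deposited intensity table of the series holds the same signal times 1 factor per array, by a rule not given in the sources used here. Precision is set by having 5 arrays in a group.

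From these, the log2 of the processed signal minus each array's 75th percentile was taken, without control spots and outlier spots, spots of a probe were averaged, and accessions were matched to RefSeq symbols. A probe had to exceed background clearly on 5 or more of the 25 arrays, and the brightest probe stood for its gene, which left 15104 genes. limma 3.58.1 (R 4.3.3) fitted 1 mean per group to all 25 arrays, with Benjamini-Hochberg adjustment and a threshold of 0.05. For genes at background on every array of a group, the fold is a lower bound: the bright group's mean over a dim level that is, per array, the higher of the gene's own signal and the lowest signal of any probe above background. Whether the effects differed between 24 and 3 hr was tested as an interaction in the same fit. The text names the 15 largest rises and falls without overlap between groups, up to 5 members per list by smallest p, 9 genes of the prostaglandin D2 pathway and main cytokines, and the few called members of short counts. Some genes that this rule takes are not reported here.

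Members and lists were chosen with earlier results of these data known. The acinar list and the slide 4 fit without ConA+BW245C replicate 4 were added after the data were seen. Alternatives covered background correction, scaling, filters, probe choice, slide and replicate terms, array weights, thresholds and leaving out each array. Promoters came from RefSeq (GRCm38.p6), of which 12017 matched a tested gene. The fit was tested on simulated data.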

Additional observations from a re-analysis of the deposited data

Results flagged for a closer look

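Of the 171 genes followed individually, 110 had an effect of BW245C that differed between 24 and 3 hr by the interaction test, and 45 passed it with the slide term as well. Values are the effect at 24 hr minus that at 3 hr on the log2 scale. The difference was positive in 26 genes: Cyp7a1 (3.95), Cyp8b1 (3.31), Keg1 (2.65), Hsd3b6 (2.48), Akr1c6 (2.4), Acot3 (2.34), Akr1d1 (2.07), Cyp2c54 (1.84), Cyp2e1 (1.81), Slco1b2 (1.69), Gsta3 (1.66), Nr1h5 (1.64), F13b (1.43), Hadh (1.27), Gpt (1.24), Ugt2b34 (1.21), Prodh (1.19), F5 (1.17), Hpgd (1.13), Slc2a2 (1.11), Nt5e (1.09), Serpind1 (0.99), Gys2 (0.84), Fech (0.82), Stard4 (0.77) and Dgat2 (0.76). It was negative in 19 genes: Cxcl3 (-4.23), Pdk4 (-3.85), Prok2 (-2.82), Retnlg (-2.79), Slc10a6 (-2.41), Mmp8 (-2.27), Il4 (-2.06), Cxcl1 (-1.85), Itgb3 (-1.69), S100a9 (-1.56), Cxcl10 (-1.41), Csf2 (-1.33), Ifng (-1.14), Stfa2 (-1.11), Sdsl (-0.97), Oas2 (-0.96), Fosl2 (-0.87), Crem (-0.65) and Bcl3 (-0.55). The values of Nr1h5, Csf2 and Prok2 are no measure of size, since no array was well above background in the ConA+vehicle livers at 24 hr for Nr1h5, in the ConA+BW245C livers at 24 hr for Csf2, or in either group at 3 hr for Prok2.

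The 171 genes gave 342 groups of livers. That of Vsig4 in ConA+vehicle livers lacked 1 value and was not examined. In 16 of the groups 1 liver lay far from the other 4, where chance gives about 1 in 20 such groups. In ConA+BW245C replicate 4 these were Cela2a at 6.09, against -3.92 to -2.72 in the rest of its group, Acot3 at -0.61 against 0.67 to 1.16, Clec4g at -0.12 against 0.92 to 1.35, Mrc1 at -0.28 against 0.45 to 0.65, Cldn7 at -0.58 against -0.86 to -0.78 and Clec9a at -1.96 against -1.20 to -1.05. In ConA+BW245C replicate 2 they were Itgb3 at 0.67 and Osmr at 0.68, both the lowest, and in replicate 3 Stfa2 at -2.28, the lowest, and H2-Eb1 at 5.15, the highest. In ConA+vehicle replicate 4 they were Bcl3 at 5.8, Cd14 at 5.99 and Col1a1 at 1.97, all the highest, and in ConA+vehicle replicate 5 Casp4 at 2.29, Emcn at -3.35 and Cd5l at 1.95, all the lowest.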

How the results depend on the processing

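The number of genes called at 24 hr, 4013, was 369 within slide 4, 1897 there without ConA+BW245C replicate 4, 2284 at an adjusted p under 0.01 and 641 at 2-fold or more. It ran from 2922 (without ConA+BW245C replicate 3) to 4342 (without ConA+BW245C replicate 4) when 1 array was left out. The number whose effects differed between the times, 4538, was 928 with the slide term, 2107 with the slide as a random term, 1892 at an adjusted p under 0.01 and 1171 at 2-fold or more, and ran from 3254 (without ConA+BW245C 24 hr replicate 3) to 5357 (without ConA+vehicle 3 hr replicate 5). Same-numbered livers of the groups did not deviate together (correlations between -0.239 and 0.142, with 1 of 5 closest to its own number), so the numbers do not pair them, and with a replicate block 3954 and 4401 genes passed. Ptges had the opposite sign with the mean of its probes (-0.16, against 0.29); the cause was not tested. Of the 167 called genes of the text, 136 kept their call under every alternative run other than the slide 4 subsets, and 166 their direction under every one. Of 48 list medians, 38 kept their sign throughout. Genes near background shrank in the normexp setting, which took the median signal and added an offset, and the cause was not tested. Slide and group were partly confounded, and signal over background limits Cxcl3, Prok2, Csf3, Csf2 and the DP1 gene.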
